A study of Mus musculus with 21 samples.

Results

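The genes described here are 8 transcripts that mark the 2C-like state of mouse ESCs: *Zscan4c*, *Zscan4d*, *Zscan4f*, *Tcstv1*, *Tcstv3*, *Gm12794*, *Gm5039* and *Tmem92*. They were taken by name and matched to their Ensembl identifiers among 51467 genes in the count tables. *Gm12794* and *Gm5039* were chosen because their levels differed between the *Ddx6* KO clones, so their values in KO cells are given as a description without a test. The cells were V6.5 mouse ESCs, a hybrid embryonic stem cell line, grown with LIF, the inhibitors of the 2i medium and serum. There were 3 wild-type cultures, 2 cultures of *Ddx6* KO clone 1 and 2 cultures of *Ddx6* KO clone 2. *Ddx6* encodes an RNA helicase of the decapping machinery and of P-bodies, and was disrupted with CRISPR-Cas9. The study describes 1 clone with a single inserted nucleotide and another with a large deletion. The labels do not say which clone carries which allele, and each clone is 1 line. All cultures were labelled with 500 µM 4sU for 30 min, after which nascent RNA (4sU) was pulled down from one portion of the RNA and total RNA was sequenced from the rest.

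A small share of ESCs in culture passes through a state that resembles the blastomeres of the 2-cell embryo. These 2C-like cells switch on transcripts of zygotic genome activation, including the *Zscan4* cluster and genes driven by MERVL repeats, and lose the pluripotency protein OCT4. The transcription factor DUX starts this programme, DPPA2 and DPPA4 act upstream of *Dux*, and chromatin repressors such as TRIM28, SETDB1, the CAF-1 complex and KDM1A hold it down. The *Zscan4* genes encode proteins with a SCAN domain and zinc fingers and have been linked to telomere maintenance. *Tcstv1* and *Tcstv3* belong to a group of transcripts that are specific to the 2-cell stage. *Gm12794*, which RefSeq calls Pramel19, is a PRAME-like gene. *Tmem92* encodes a transmembrane protein. The annotated *Gm5039* transcript was 94.9% identical to *Eif1a*, which encodes a translation initiation factor, over 434 aligned bases. Because these are bulk cultures, more cells in the 2C-like state and more RNA in each such cell cannot be told apart.

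Positions are those of GRCm38 in the Gencode annotation. *Zscan4c* (ENSMUSG00000054272, chr7:11005745-11010547, plus strand), *Zscan4d* (ENSMUSG00000090714, chr7:11161374-11166159, minus strand) and *Zscan4f* (ENSMUSG00000070828, chr7:11397915-11402318, plus strand) are 3 of 9 annotated *Zscan4* copies on chromosome 7. *Tcstv1* (ENSMUSG00000096284) and *Tcstv3* (ENSMUSG00000095821) lie at chr13:119893388-119894785 and chr13:120316878-120318178. *Gm12794* (ENSMUSG00000070890) lies at chr4:101940407-101943183, *Gm5039* (ENSMUSG00000093847) at chr12:88320122-88324026 and *Tmem92* (ENSMUSG00000075610) at chr11:94777217-94782703. All 8 are annotated as protein coding there, while RefSeq lists *Gm5039* as a transcribed pseudogene.

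RefSeq promoter windows on GRCm38.p6 were found for 4 of the 8 genes, and those of the 3 *Zscan4* genes are shown because they are nearly the same sequence. The 266 bases that the windows share are printed 5′ to 3′ on the strand of each gene, with capitals at the 8 positions where the copies differ.
Zscan4c: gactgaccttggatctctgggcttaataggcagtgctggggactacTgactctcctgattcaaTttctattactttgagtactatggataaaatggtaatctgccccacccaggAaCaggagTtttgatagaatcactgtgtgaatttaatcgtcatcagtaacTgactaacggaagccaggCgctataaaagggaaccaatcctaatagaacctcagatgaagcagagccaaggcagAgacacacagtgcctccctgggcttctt
Zscan4d: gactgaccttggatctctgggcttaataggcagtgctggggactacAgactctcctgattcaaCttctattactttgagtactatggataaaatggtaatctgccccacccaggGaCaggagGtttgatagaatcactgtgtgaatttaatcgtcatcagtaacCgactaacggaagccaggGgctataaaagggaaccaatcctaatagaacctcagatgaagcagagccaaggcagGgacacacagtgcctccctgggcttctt
Zscan4f: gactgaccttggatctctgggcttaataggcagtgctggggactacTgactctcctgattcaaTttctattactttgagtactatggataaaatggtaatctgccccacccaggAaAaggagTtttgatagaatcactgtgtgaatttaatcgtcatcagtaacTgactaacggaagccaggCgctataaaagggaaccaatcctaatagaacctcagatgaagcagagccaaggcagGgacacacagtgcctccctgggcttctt
These stretches lie at chr7:11005506-11005771, chr7:11166133-11166398 and chr7:11397699-11397964, respectively. *Zscan4c* and *Zscan4f* differed at 2 of the 266 positions (99.2% identical), and *Zscan4d* differed from each of them at 7 (97.4%). The letters TATAAA, searched on both strands, occurred in all 3, starting 54, 65 and 31 bases before the RefSeq start of *Zscan4c*, *Zscan4d* and *Zscan4f*. They lie at the same place in the 266 printed bases, so these distances differ only with the annotated start. For *Zscan4d* the RefSeq start is not the Gencode start given above. The same letters occurred in 13.6% of 32851 promoter windows of this kind. The window of Pramel19 did not hold them.

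The transcripts of the *Zscan4* copies are nearly as alike as their promoters. Of all 50-base windows in the annotated *Zscan4c* transcripts, 14.5% occur in no other gene, against 13.2% for *Zscan4f* and 50.4% for *Zscan4d*. The share was 52.7% for *Gm12794*, 68.6% for *Tcstv3*, 82.7% for *Gm5039*, 85% for *Tcstv1* and 98.1% for *Tmem92*. *Gm12794* shares 44.7% of its windows with *Gm12800*. Since only uniquely mapped reads were counted and the single-end reads were 50 bases long, the counts of single *Zscan4* copies rest on part of each transcript, and the level of a single copy is uncertain.

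The 4sU libraries held 2441639 to 3570192 counts each, and the total RNA libraries 5724179 to 7369651. A floor of 3 counts corresponds to 0.840 to 1.23 CPM (counts scaled to the library total) in 4sU libraries and 0.407 to 0.524 CPM in total RNA. Such floors and the intervals below cover counting error only, and the cultures may be technical replicates, so that p values measure the spread between these samples. *Ddx6* itself, total RNA, was at 314, 357 and 363 CPM in wild type, 59.6 and 70.7 in KO clone 1 and 23.9 and 22.5 in KO clone 2. Of the 8 genes, 7 passed the filter of 3 CPM in 3 libraries, which left 14518 genes. *Tcstv1* reached 3 CPM in 2 libraries and was not tested. *Tcstv3* reached it in exactly 3, all of them 4sU libraries of KO cells, and *Zscan4f* in 8, of which 1 was wild type, so both passed through the group in which they were higher. *Tcstv3* is therefore left out of the counts of called genes below unless stated. Its p values for KO against wild type come, unless stated, from the fit without the filter, which held 31486 genes with at least 1 count. *Zscan4f* is kept in the counts, and its values from that fit are given beside them.

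Nascent RNA of the 3 *Zscan4* genes was higher in every *Ddx6* KO culture than in any wild-type culture. *Zscan4c* was at 6.55, 6.39 and 4.68 CPM in 4sU of wild type, at 29.4 and 24.4 CPM in KO clone 1 and at 13.9 and 14.3 CPM in KO clone 2. *Zscan4d* was at 5.73, 4.71 and 8.36 CPM in wild type, 33.1 and 34.6 CPM in KO clone 1 and 14.2 and 15.1 CPM in KO clone 2. *Zscan4f* was at 2.87, 1.35 and 4.35 CPM in wild type, 11.8 and 11.5 CPM in KO clone 1 and 7.42 and 5.6 CPM in KO clone 2. For all 3 genes the order was the same, with wild type lowest, KO clone 2 between and KO clone 1 highest, and the 3 groups did not overlap. The counts behind the wild-type values were 14 to 19 for *Zscan4c*, 14 to 25 for *Zscan4d* and 4 to 13 for *Zscan4f*.

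*Tcstv3* followed the same order at lower counts. In 4sU it had 2, 4 and 1 counts in wild type, 12 and 13 in KO clone 1, and 6 and 12 in KO clone 2. These counts give a KO level 4.00-fold that of wild type, with an exact 95% counting interval of 1.78 to 10.5. *Tcstv1* had 4, 4 and 7 counts in wild type, 9 and 13 in KO clone 1 and 8 and 12 in KO clone 2, a ratio of 1.82 with an interval of 0.99 to 3.54. In CPM both genes were higher in all 4 KO cultures than in all 3 wild-type cultures, but the interval of *Tcstv1* reached 1.

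The *Gm* genes, chosen for their clone differences, showed the pattern they were chosen for. *Gm12794* was at 6.14, 5.05 and 7.02 CPM in 4sU of wild type, 19.7 and 25.8 CPM in KO clone 1 and 9.03 and 10.1 CPM in KO clone 2. *Gm5039* was at 11.9, 8.41 and 13 CPM in wild type, 37.6 and 28.2 CPM in KO clone 1 and 15.5 and 16.8 CPM in KO clone 2. *Tmem92* went another way. It was at 9.83, 7.74 and 11 CPM in wild type, 9.71 and 12.6 CPM in KO clone 1 and 3.87 and 5.04 CPM in KO clone 2, so that KO clone 1 overlapped wild type and KO clone 2 lay below both.

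**Figure D1:**
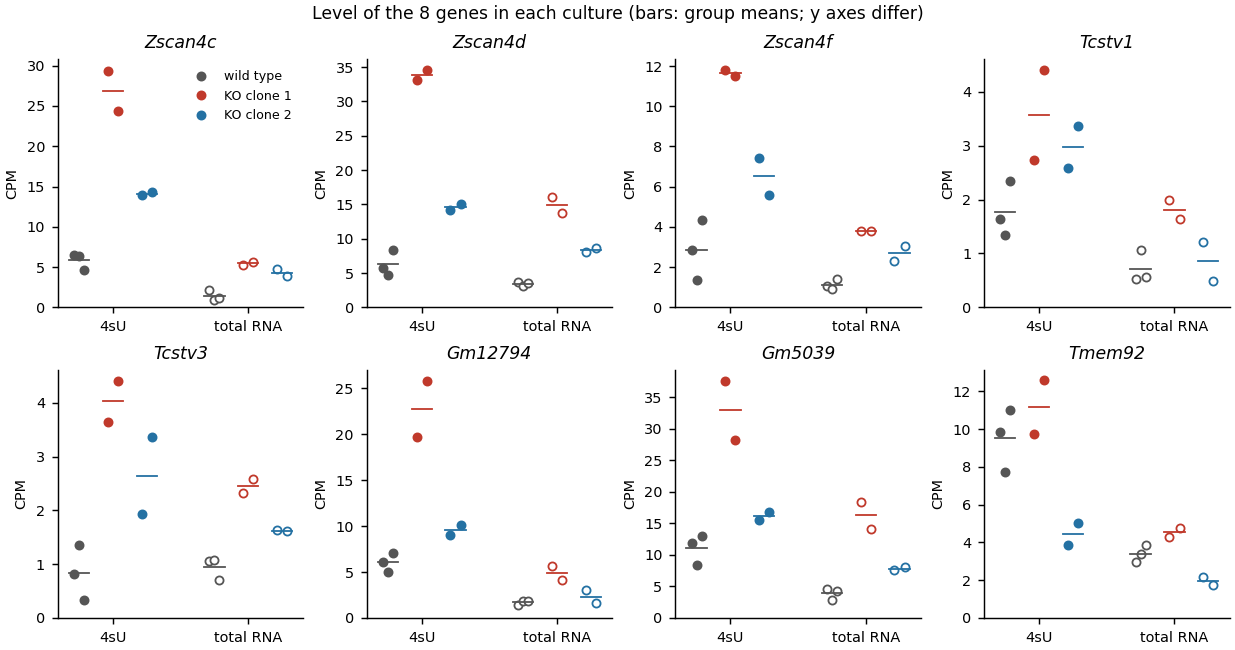
CPM of the 8 genes in each culture, in 4sU (filled circles) and total RNA (open circles), for wild type (grey), KO clone 1 (red) and KO clone 2 (blue), with short bars at group means. Of the 6 genes not chosen for clone differences, 5 had higher 4sU CPM in all 4 KO cultures than in all 3 wild-type cultures. The same was true of 34.3% of all tested genes, and with TMM-scaled CPM the number was 4 of 6. *Tmem92* was lowest in KO clone 2.

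With both clones pooled, nascent RNA of 3 of the 6 genes not chosen for clone differences rose in *Ddx6* KO cells (edgeR quasi-likelihood test, adjusted p below 0.05 and more than a log2 change of 1). Among all 14518 genes, 5.14% rose by this rule. The log2 fold changes were 1.60 ± 0.27 for *Zscan4c* (SE, n = 3 wild-type and 4 KO cultures here and below, edgeR adjusted p = 2.02e-06), 1.72 ± 0.47 for *Zscan4d* (adjusted p = 0.0106) and 1.45 ± 0.36 for *Zscan4f* (adjusted p = 0.000814). Without the filter *Zscan4f* was at 1.5 (adjusted p = 0.000219) and *Tcstv3* at 1.82 ± 0.59 (adjusted p = 0.0132). *Tmem92* was at -0.51 ± 0.32 (adjusted p = 0.202). The call of *Zscan4d* was lost without wild-type replicate 1 (1.67, adjusted p = 0.0561) or 2 (1.54, adjusted p = 0.0711). With the filter, the adjusted p of *Tcstv3* was 0.0784 without wild-type replicate 3 (1.36) and 0.0899 with the paired-end run alone (1.84). Without either culture of KO clone 1, or without replicate 2 of KO clone 2, *Tcstv3* no longer passed the filter.

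Scaling by library size alone raised the median of all genes in this comparison by 0.21, and TMM values are therefore changes relative to the other genes. Under both scalings *Zscan4c*, *Zscan4d*, *Zscan4f* and *Tcstv3* were higher in KO cells. In CPM, 5 of the 6 genes not chosen for clone differences had every KO culture above every wild-type culture in 4sU, and 34.3% of all tested genes did. With TMM-scaled CPM the number was 4 of 6. An exact two-sided permutation test over 3 and 4 cultures cannot give less than 0.0571. *Zscan4c*, *Zscan4d*, *Zscan4f*, *Tcstv1* and *Tcstv3* reached this value in 4sU (exact permutation test, p = 0.0571, 0.0762 after adjustment over 12 tests), and *Tmem92* did not (exact p = 0.514).

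Total RNA gave the same order of groups for the *Zscan4* genes, at lower CPM. *Zscan4c* was at 2.1, 0.916 and 1.14 CPM in total RNA of wild type, 5.3 and 5.6 CPM in KO clone 1 and 4.75 and 3.86 CPM in KO clone 2. *Zscan4d* was at 3.67, 3.05 and 3.56 CPM in wild type, 16.1 and 13.8 CPM in KO clone 1 and 8.01 and 8.68 CPM in KO clone 2. *Zscan4f* was at 1.05, 0.916 and 1.42 CPM in wild type, 3.81 and 3.82 CPM in KO clone 1 and 2.31 and 3.05 CPM in KO clone 2. None of the 3 *Zscan4* genes overlapped between wild type and KO clones, and the clones were nearest to each other for *Zscan4c*.

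Of the other genes in total RNA, *Tcstv3* had 6, 7 and 5 counts in wild type, 14 and 19 in KO clone 1 and 12 and 10 in KO clone 2, and *Tcstv1* had 3, 7 and 4, then 12 and 12, then 9 and 3. The KO level of *Tcstv3* was 2.19-fold that of wild type with an exact 95% counting interval of 1.27 to 3.96, and that of *Tcstv1* was 1.84-fold with an interval of 0.97 to 3.70. *Gm5039* was at 4.54, 2.9 and 4.27 CPM in wild type, 18.4 and 14.1 CPM in KO clone 1 and 7.6 and 8.04 CPM in KO clone 2. *Gm12794* was at 1.4, 1.83 and 1.85 CPM in wild type, 5.63 and 4.1 CPM in KO clone 1 and 2.99 and 1.61 CPM in KO clone 2, so that KO clone 2 overlapped wild type. *Tmem92* was at 2.97, 3.36 and 3.84 CPM in wild type, 4.31 and 4.78 CPM in KO clone 1 and 2.17 and 1.77 CPM in KO clone 2, with no overlap between the 3 groups.

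In mRNA, 3 of the 6 genes rose in the pooled *Ddx6* KO cells, beside 5.28% of all tested genes. They were *Zscan4c* (1.68 ± 0.34, adjusted p = 3.53e-05), *Zscan4d* (1.60 ± 0.44, adjusted p = 0.00942) and *Zscan4f* (1.33 ± 0.38, adjusted p = 0.00259). Without the filter *Zscan4f* was at 1.43 (adjusted p = 0.000834) and *Tcstv3* at 1.05 ± 0.45 (adjusted p = 0.0764). With the filter *Tcstv3* passed under library-size scaling (1.11, adjusted p = 0.0265). *Tmem92* was at -0.22 ± 0.33 (adjusted p = 0.609). Without wild-type replicate 2 the call of *Zscan4d* was lost (1.52, adjusted p = 0.0511), and without replicate 1 of KO clone 2 *Tcstv3* passed (1.07, adjusted p = 0.0408). In CPM, 4 of the 6 genes had every KO culture above every wild-type culture, beside 30.7% of all tested genes.

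The clones were next compared with wild type one by one. In 4sU of KO clone 1, 3 of the 6 genes rose, beside 5.09% of all genes: *Zscan4c* by 2.00 ± 0.25 (adjusted p = 1.61e-09), *Zscan4d* by 2.22 ± 0.22 (adjusted p = 1.4e-12) and *Zscan4f* by 1.82 ± 0.37 (adjusted p = 6.11e-05). *Tmem92* differed from wild type by 0.015 ± 0.28 (adjusted p = 0.974), so its interval spans both directions. In mRNA of KO clone 1 the 3 *Zscan4* genes also rose, beside 5.18% of all genes, with 1.84 ± 0.33 for *Zscan4c*, 1.95 ± 0.22 for *Zscan4d* and 1.57 ± 0.40 for *Zscan4f* (edgeR adjusted p at most 0.000914). Without the filter *Zscan4f* was at 1.86 in nascent RNA (edgeR adjusted p = 1.66e-05) and at 1.67 in mRNA (edgeR adjusted p = 0.00045). In the same fit *Tcstv3* was at 2.07 ± 0.64 in nascent RNA (adjusted p = 0.0114) and at 1.32 ± 0.50 in mRNA (adjusted p = 0.0425). With the filter its adjusted p in mRNA was 0.0717 with DESeq2 (1.26) and 0.1 without wild-type replicate 3 (1.05), and in nascent RNA 0.0876 with the paired-end run alone (2.11) and 0.0512 without wild-type replicate 3 (1.63). As a description, *Gm12794* was 1.69 above wild type in 4sU and 1.32 in mRNA, and *Gm5039* 1.37 and 1.89, all on the log2 scale.

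In KO clone 2 the changes were nearer to the fold threshold. In 4sU, 2 of the 6 genes rose, beside 4.88% of all genes: *Zscan4c* by 1.06 ± 0.28 (adjusted p = 0.00187) and *Zscan4d* by 1.01 ± 0.26 (adjusted p = 0.00136). *Zscan4f* was at 0.97 ± 0.41 (adjusted p = 0.0578). Without the filter *Zscan4f* was at 1.04 (edgeR adjusted p = 0.0768) and *Tcstv3* at 1.53 ± 0.69 (adjusted p = 0.132). *Tmem92* was called lower, at -1.28 ± 0.33 (adjusted p = 0.00139), beside 5.88% of all genes that fell. The *Zscan4* calls sat on the threshold. Without wild-type replicate 3, *Zscan4c* was at 0.91 and *Zscan4f* at 1.44, which passed (adjusted p = 0.0179). *Zscan4d* was at 0.95, 0.83 and 0.96 without wild-type replicate 1, wild-type replicate 2 and replicate 2 of KO clone 2, with adjusted p between 0.00783 and 0.0209, and at 0.99 with DESeq2 (adjusted p = 0.00445). With the single-end run alone *Zscan4c* was at 0.76 (adjusted p = 0.241), and with the paired-end run alone *Zscan4d* was at 0.78 (adjusted p = 0.0799) and *Tmem92* at -0.996 (adjusted p = 0.128). Library-size scaling called *Zscan4f* and *Tcstv3* in addition, and limma-voom *Zscan4f*.

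Total RNA of KO clone 2 showed 3 of the 6 genes higher, beside 5.21% of all genes. They were *Zscan4c* (1.51 ± 0.35, adjusted p = 0.000263), *Zscan4d* (1.12 ± 0.24, adjusted p = 9.05e-05) and *Zscan4f* (1.05 ± 0.43, adjusted p = 0.0396). The *Zscan4f* call was lost without wild-type replicate 1 (0.997, adjusted p = 0.0881) or 2 (0.917, adjusted p = 0.104) and without replicate 1 (1.26, adjusted p = 0.0533) or 2 (0.865, adjusted p = 0.209) of KO clone 2. It was also lost with DESeq2 (1.10, adjusted p = 0.0575). Without the filter *Zscan4f* was at 1.15 (edgeR adjusted p = 0.0471) and *Tcstv3* at 0.72 ± 0.54 (adjusted p = 0.481). *Tmem92* was at -0.93 ± 0.35 (adjusted p = 0.0256), under the fold threshold, and passed it without wild-type replicate 1 (-1.01, adjusted p = 0.027). As a description, *Gm12794* was 0.45 above wild type in 4sU and 0.30 in mRNA, and *Gm5039* 0.34 and 0.85.

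**Figure D2:**
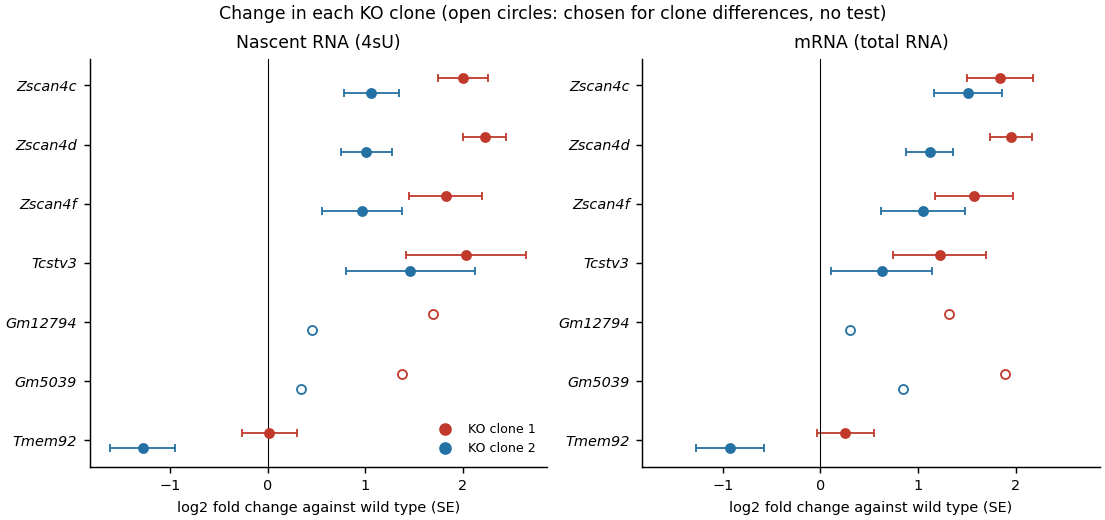
Log2 fold change against wild type in KO clone 1 (red) and KO clone 2 (blue), for nascent RNA on the left and mRNA on the right, with bars of 1 SE from edgeR. Open circles without bars are *Gm12794* and *Gm5039*, which were chosen for their clone differences. The order of the clones for these 2 genes was set by how they were chosen. KO clone 1 also lies to the right of KO clone 2 for *Zscan4c*, *Zscan4d*, *Zscan4f*, *Tcstv3* and *Tmem92* in both assays. The share of all genes with this order is not given, and *Tcstv3* passed the filter through KO libraries. *Tmem92* in KO clone 2 lies below 0.

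The clones were then compared with each other. Few genes separated them: 10 of 14518 in nascent RNA (0.0689%) and 12 in mRNA (0.0827%). *Zscan4d* was called in nascent RNA, where it was lower in KO clone 2 by a log2 change of -1.20 ± 0.21 (adjusted p = 0.000293), and it had the same sign below the fold threshold in mRNA (-0.83 ± 0.20, adjusted p = 0.0449). With the single-end run alone the nascent call was lost (adjusted p = 0.0713). None of the other tested genes passed in either assay with edgeR, DESeq2 or limma-voom, while 4 of the 5 tested had an unadjusted p below 0.05 in nascent RNA and 2 in mRNA. Counts at an unadjusted p, here and below, have no share of all genes beside them and are a description only. In nascent RNA *Zscan4c* was at -0.94 ± 0.23 (adjusted p = 0.0796), *Zscan4f* at -0.85 ± 0.34 (adjusted p = 0.61), *Tcstv3* at -0.57 ± 0.52 (adjusted p = 0.913) and *Tmem92* at -1.30 ± 0.35 (adjusted p = 0.116). In mRNA *Zscan4c* was at -0.33 ± 0.29 (adjusted p = 0.912), *Zscan4f* at -0.52 ± 0.37 (adjusted p = 0.875) and *Tmem92* at -1.19 ± 0.36 (adjusted p = 0.208). *Gm12794* and *Gm5039*, which were chosen on this contrast, were at -1.24 and -1.03 in nascent RNA and at -1.02 and -1.04 in mRNA.

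In CPM, both cultures of KO clone 1 lay above both cultures of KO clone 2 for 5 of the 6 genes not chosen for clone differences in 4sU and for 6 of 6 in total RNA, beside 16.6% and 19.5% of all tested genes. The exception in 4sU was *Tcstv1*. The clones also differed in other genes, among them some of the Y chromosome, which are named here after their values were seen. In total RNA, *Ddx3y* was at 52 to 54.7 CPM in wild type, 106 to 114 CPM in KO clone 1 and 0.271 to 0.322 CPM in KO clone 2. *Eif2s3y* and *Uty* had at most 1 count in any library of KO clone 2. *Tmem92*, which is on chromosome 11, had *Ddx3y* (Pearson r = 0.913 over 14 libraries) and *Uty* (r = 0.887) among the 3 genes with the most similar pattern. Whether the Y-linked signal bears on any of the 8 genes was not tested.

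Since the *Zscan4* copies share much of their sequence, all 9 annotated copies were also added up to one feature, a choice made after the data were seen. The sum was 41.0, 34.6 and 43.1 CPM in 4sU of wild type, 169 and 164 CPM in KO clone 1, and 90.0 and 90.8 CPM in KO clone 2. In total RNA it was 17.6, 14.5 and 17.5 CPM in wild type, 51.2 and 52.0 CPM in KO clone 1, and 32.6 and 33.8 CPM in KO clone 2. The replicates of each group lay close together and the 3 groups did not overlap in either assay.

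For this sum the pooled *Ddx6* KO change was 1.49 ± 0.32 in nascent RNA (adjusted p = 0.00307) and 1.20 ± 0.33 in mRNA (adjusted p = 0.011). By clone it was 1.87 ± 0.11 and 0.99 ± 0.11 in nascent RNA for KO clones 1 and 2, and 1.48 ± 0.11 and 0.85 ± 0.12 in mRNA (adjusted p at most 2.43e-08). The difference between the clones was -0.89 ± 0.10 in nascent RNA (adjusted p = 6.04e-09) and -0.64 ± 0.11 in mRNA (adjusted p = 0.000253), with KO clone 2 lower. Neither change of KO clone 2 and neither difference between the clones reached the fold threshold. *Tcstv1* and *Tcstv3* added together were at 2.457, 2.691 and 2.675 CPM in 4sU of wild type. They were at 6.37 and 8.828 CPM in KO clone 1 and at 4.515 and 6.722 CPM in KO clone 2. This sum reached 3 CPM in KO libraries only, so it passed the filter through the group in which it was higher. Its log2 changes in pooled KO cells, 1.12 in nascent RNA and 0.86 in mRNA, are therefore a description without a test.

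*Zscan4d* made up 16% of the *Zscan4* counts in 4sU of wild type, 20.2% in KO clone 1 and 16.3% in KO clone 2. *Zscan4a* and *Zscan4d* held the largest shares of the total RNA counts, with 31.3% and 20.7% in wild type and 21.7% and 28.7% in KO clone 1. *Zscan4f* held between 6.9% and 8% in every group and assay. Among the other copies, the pooled KO change in nascent RNA ranged from 0.914 for *Zscan4b* (edgeR adjusted p = 0.105) to 1.84 for *Zscan4e* (edgeR adjusted p = 0.000119). In mRNA it ranged from 0.219 for *Zscan4e* (edgeR adjusted p = 0.725) to 1.57 for *Zscan4-ps3* (edgeR adjusted p = 6.72e-05). *Zscan4b* in 4sU was at 5.05 CPM in wild-type replicate 2 and at 3.55 and 3.92 CPM in KO clone 2.

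**Figure D3:**
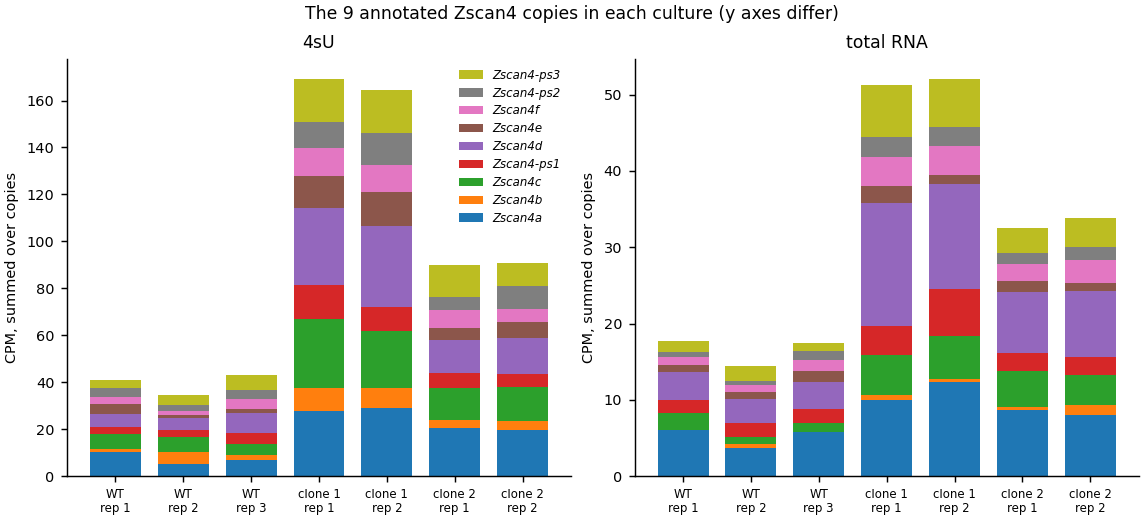
CPM of the 9 annotated *Zscan4* copies stacked for each culture, in 4sU on the left and total RNA on the right. The stacks reach 34.6 to 43.1 CPM in wild type, 164 to 169 CPM in KO clone 1 and 90.0 to 90.8 CPM in KO clone 2 in 4sU, and keep that order in total RNA.

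The sequencing runs weighed the *Zscan4* copies differently. The 4sU libraries were sequenced as single-end 50-base reads and again as read pairs, and total RNA as single-end reads. The mean CPM of the 7 4sU libraries was 8.15 in the single-end run and 22.8 in the paired-end run for *Zscan4c*, a ratio of 2.80, and the ratio was 3.33 for *Zscan4f* and 1.73 for *Zscan4d*. All 3 were higher in the paired-end run in all 7 libraries. For *Tcstv1*, *Tcstv3*, *Gm12794*, *Gm5039* and *Tmem92* the ratio lay between 0.943 and 1.21, and for *Ddx6* it was 0.973. Among the 9 *Zscan4* copies the ratio ranged from 1.27 for *Zscan4-ps1*, with 51.6% of its windows unique, to 3.74 for *Zscan4-ps2*, with 12.4%.

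Both runs gave higher CPM of the 3 *Zscan4* genes in KO cells. *Zscan4c* in 4sU of KO clone 1 was 4.11-fold wild type in the single-end run and 4.98-fold in the paired-end run, *Zscan4d* 6.68-fold and 4.7-fold, and *Zscan4f* 7.27-fold and 3.4-fold. In KO clone 2 the folds were 1.88 and 2.71 for *Zscan4c*, 2.91 and 2 for *Zscan4d* and 2.41 and 2.32 for *Zscan4f*. *Tmem92* was 0.402-fold and 0.571-fold in KO clone 2.

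**Figure D4:**
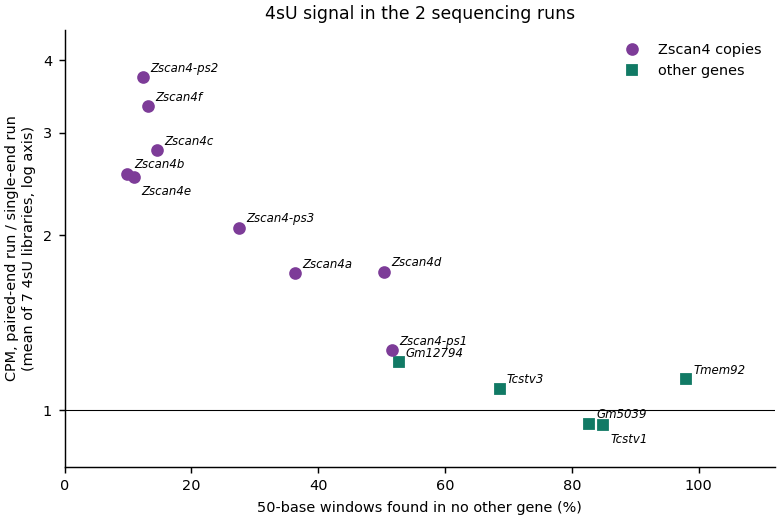
Ratio of mean 4sU CPM in the paired-end run to that in the single-end run (log axis) against the share of 50-base windows that occur in no other gene, for the 9 *Zscan4* copies (circles) and the 5 other genes (squares). *Zscan4f*, with 13.2% of its windows unique, stands at 3.33, and *Tmem92*, with 98.1%, at 1.13.

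To compare levels between genes, CPM were divided by exonic length in kb. In total RNA of wild type the level was 2.10 ± 0.47 CPM per kb for *Gm5039* (SD, n = 3), 1.85 ± 0.39 for *Tcstv3*, 1.55 ± 0.20 for *Tmem92*, 1.51 ± 0.14 for *Zscan4d*, 1.17 ± 0.18 for *Gm12794*, 0.617 ± 0.14 for *Zscan4f*, 0.608 ± 0.28 for *Zscan4c* and 0.515 ± 0.22 for *Tcstv1*. Among neighbours in that order, only *Zscan4d* and *Gm12794*, and *Gm12794* and *Zscan4f*, had mean ± SD ranges that did not overlap. In KO clone 1 the order began with *Gm5039* (8.74 ± 1.64, n = 2), *Zscan4d* (6.57 ± 0.71) and *Tcstv3* (4.82 ± 0.38). The per-length values of the *Zscan4* copies count only reads that could be placed.

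The next comparison asked how the total RNA of these genes stood to their nascent RNA, which the study uses as a measure of mRNA stability. In wild type, total RNA was lower than 4sU for 5 of the 8 genes by the same rule, relative to the other genes of each library, beside 27.1% of all tested genes. The call of *Zscan4f* among them did not hold with the single-end 4sU run alone, the run with the read type of the total RNA. The log2 ratios of total RNA to 4sU were -2.11 ± 0.36 for *Zscan4c* (adjusted p = 3.83e-07), -1.32 ± 0.47 for *Zscan4f* (adjusted p = 0.00844), -1.83 ± 0.35 for *Gm12794* (adjusted p = 3.73e-06), -1.52 ± 0.25 for *Gm5039* (adjusted p = 2e-07) and -1.49 ± 0.27 for *Tmem92* (adjusted p = 2.1e-06). *Zscan4d* was at -0.89 ± 0.28 (adjusted p = 0.00368), under the fold threshold, and *Tcstv3* at 0.15 ± 0.68 (adjusted p = 0.846).

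For the *Zscan4* genes this ratio moved with the run. With the single-end 4sU run alone *Zscan4c* was at -1.40 (adjusted p = 0.00854), *Zscan4d* at -0.16 (adjusted p = 0.733) and *Zscan4f* at 0.18 (adjusted p = 0.841), and with the paired-end run alone they were at -2.72, -1.53 and -2.26. The other genes did not depend on the run in this way: *Gm12794* was at -1.80 and -1.83, *Gm5039* at -1.58 and -1.39 and *Tmem92* at -1.46 and -1.49. Without wild-type replicate 3 the *Zscan4f* call was lost (-1.07, adjusted p = 0.125), and without wild-type replicate 2 *Zscan4d* passed (-1.01, adjusted p = 0.00573).

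The ratio of total RNA to 4sU did not pass the test of change in *Ddx6* KO cells for any of the 5 genes tested. Over all genes, 1.08% passed in this comparison. The change was 0.085 ± 0.40 for *Zscan4c* (adjusted p = 0.935), -0.13 ± 0.70 for *Zscan4d* (adjusted p = 0.946), -0.12 ± 0.62 for *Zscan4f* (adjusted p = 0.944), -0.81 ± 0.76 for *Tcstv3* (adjusted p = 0.56) and 0.29 ± 0.46 for *Tmem92* (adjusted p = 0.766). None of the 5 had an unadjusted p below 0.05, and DESeq2 and limma-voom called none. With standard errors of 0.40 to 0.76, none of these changes could be told from 0 at this depth. *Gm5039* had ratios of -1.32, -1.41 and -1.51 in the wild-type cultures and between -0.99 and -0.93 in the 4 KO cultures, which did not overlap and are given as a description.

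**Figure D5:**
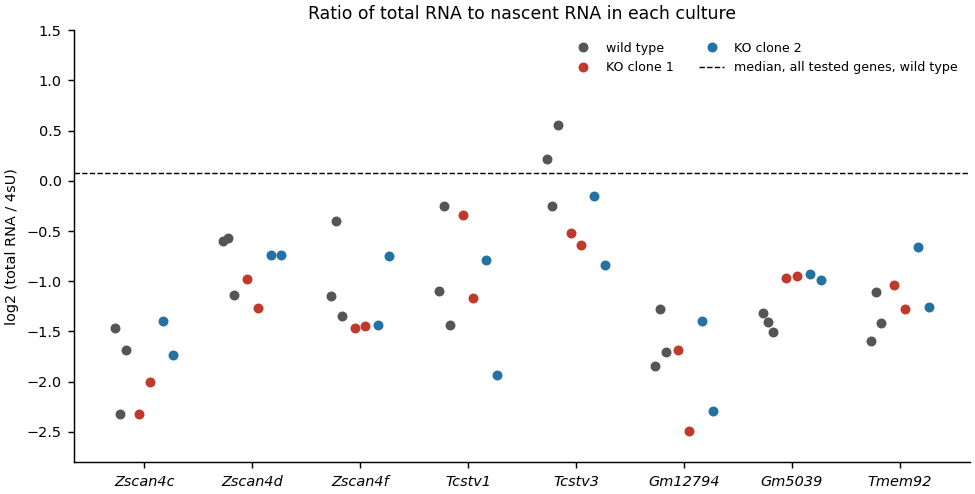
Log2 ratio of total RNA to 4sU in each culture for the 8 genes (TMM-scaled CPM with a pseudocount of 0.5), in wild type (grey), KO clone 1 (red) and KO clone 2 (blue). The dashed line is the wild-type median of all tested genes at 0.074, and the points of all genes but *Tcstv3* lie below it.

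Other transcripts of the 2C-like programme were followed as a list of 49, of which 20 passed the filter and 9 had no count in any library. It holds *Zscan4a*, *Zscan4b* and *Zscan4e*, which share sequence with the genes above, and several *Usp17l* and *Eif1a*-like genes, families whose copies are alike, so their single values are uncertain. Some of the 20 passed the filter only through KO cultures. *Usp17le*, for example, had wild-type means of 1.53 CPM in 4sU and 0.815 CPM in total RNA. The counts below were thus partly set by the filter, and no count without it is given. Nascent RNA of 12 of the 20 rose in pooled *Ddx6* KO cells, beside 5.14% of all tested genes, and 1 fell. The median log2 change was 1.51 beside 0.0011 over all genes. In KO clone 1, 16 rose (5.09% of all genes) and 1 fell, with a median of 1.81, and in KO clone 2, 5 rose (4.88% of all genes) and none fell, with a median of 0.96. In mRNA, 10 rose and 1 fell in the pooled KO cells (median 1.29), 12 and 1 in KO clone 1 (median 1.41), and 5 and 0 in KO clone 2 (median 0.68), where 5.28%, 5.18% and 5.21% of all genes rose. None of the 20 was called between the clones by edgeR or DESeq2, and limma-voom called 1 in each assay. At an unadjusted p below 0.05 there were 12 in nascent RNA and 9 in mRNA. In nascent RNA 19 of the 20 were lower in KO clone 2, with a median log2 difference of -0.85 beside -0.00073 over all genes.

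Among the most abundant of these, the *Usp17l* genes, which encode deubiquitinating enzymes, had higher mean CPM in both clones in total RNA. *Usp17le* was at 0.815 CPM in wild type, 5.43 CPM in KO clone 1 and 4.01 CPM in KO clone 2. Its log2 changes of 2.54 and 2.08 are a description without a test, since it passed the filter through KO cultures. *Usp17lb* was at 1.22, 8.74 and 4.10 CPM. *Gm8300*, another *Eif1a*-like gene, was at 3.33, 11.7 and 6.68 CPM in total RNA, and was called in KO clone 1 (1.60 ± 0.25, adjusted p = 4.3e-07). *Zscan4a* was at 5.20, 11.1 and 8.36 CPM. *Ddit4l* was at 6.98, 8.40 and 6.48 CPM and was not called in either clone. The transcript that fell was *Dppa3*, a maternal factor also found in naive ESCs, at 3.95, 1.55 and 2.69 CPM.

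Of 6 known activators of this state, 5 passed the filter. In pooled KO cells none was called by edgeR, DESeq2 or limma-voom, with 2 at an unadjusted p below 0.05 in nascent RNA and 3 in mRNA, and the median log2 change was 0.032 in nascent RNA and -0.12 in mRNA of pooled KO cells. *Dux*, listed as *Duxf3*, had 0 to 1 counts in wild-type 4sU, 1 to 3 in KO clone 1 and 0 to 2 in KO clone 2, and in total RNA 1 count in every wild-type library, 2 to 4 in KO clone 1 and 1 in KO clone 2. At these counts a difference in *Duxf3* was not detectable. *Dppa2* was at 22.5 CPM in total RNA of wild type, 41.6 CPM in KO clone 1 and 38.2 CPM in KO clone 2, with log2 changes of 0.73 ± 0.12 and 0.62 ± 0.12 (adjusted p at most 2.29e-05), under the fold threshold. *Dppa4* was at 45.3, 45.7 and 47.2 CPM.

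The 20 repressors of the state all passed the filter and none was called in mRNA of either clone by edgeR, DESeq2 or limma-voom, although 11 in KO clone 1 and 8 in KO clone 2 had an unadjusted p below 0.05. Their median was -0.089 in the pooled KO cells. Below the fold threshold they went both ways. At the adjusted p alone, 6 were lower and 0 higher in mRNA of both clones. In nascent RNA of both clones 3 were lower and 6 higher (*Ehmt1*, *Ehmt2*, *Mga*, *Setdb1*, *Smchd1* and *Zfp42*). Among all tested genes, far more passed the adjusted p alone than passed it together with the fold threshold in pooled KO cells. The share of all genes that passed in both clones is not given. These counts are therefore a description and do not set the repressors apart from other genes. Past the fold threshold, *Lin28a* fell in nascent RNA of KO clone 1. Among the 6 most abundant, *Trim28* was at 2150 CPM in total RNA of wild type, 1670 CPM in KO clone 1 and 1530 CPM in KO clone 2, with log2 changes of -0.52 ± 0.06 and -0.65 ± 0.06 (adjusted p at most 6.91e-11). *Uhrf1*, which maintains DNA methylation, was at -0.44 ± 0.07 and -0.35 ± 0.07, and *Dnmt1* at -0.29 ± 0.06 and -0.27 ± 0.06 (adjusted p at most 0.000211). *Rif1* was at -0.26 ± 0.07 and -0.27 ± 0.07 (adjusted p at most 0.00296), and *Ncl* at -0.27 ± 0.06 and -0.061 ± 0.061 (adjusted p = 0.000258 and 0.435). *Mga* was at -0.0093 ± 0.064 and 0.093 ± 0.063 in mRNA, but at 0.33 ± 0.07 and 0.36 ± 0.07 in nascent RNA (adjusted p at most 0.000169).

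Markers of cell types were summed as well. The 10 markers of 2C-like cells, 5 of them among the 8 genes, are not an independent check of the label. In total RNA they summed to 11.7 to 13.4 CPM in wild type, 45.9 to 48.4 CPM in KO clone 1 and 28.9 to 29.9 CPM in KO clone 2. The 7 tested include *Tcstv3*, and 4 of them are among the 8 genes. Of these 7, 7 were called higher in nascent RNA and 6 in mRNA of pooled KO cells, beside 5.14% and 5.28% of all genes. *Tcstv3* and *Zscan4f* passed the filter through KO cultures, as stated above. So did *Zfp352*, whose wild-type means were 1.08 CPM in 4sU and 0.615 CPM in total RNA. These counts were thus partly set by the filter and partly repeat the results of the 8 genes, so they are a description only. Markers of other states moved as well, and their part in these results was not tested. The summed total RNA of 6 pluripotency markers ranged from 2850 to 2950 CPM in wild type and from 3740 to 3950 CPM in KO cells, with none of the 6 called. Primed epiblast markers, 3 of 5 tested, ranged from 131 to 145 CPM in wild type and from 83.6 to 94.4 CPM in KO cells, with *Otx2* called lower. Germline markers, 4 of 5 tested, ranged from 59.9 to 71.6 CPM in wild type and from 106 to 127 CPM in KO cells, with *Ddx4* and *Mael* called higher. Fibroblast markers, 3 of 6 tested, ranged from 6.54 to 7.33 CPM in wild type and from 12.4 to 15.2 CPM in KO cells, with *Thy1* called higher and *Postn* at 0 in every library. Primitive endoderm markers ranged from 8.09 to 13.6 and from 12.3 to 19.1 CPM, with none of 3 called, and trophectoderm markers from 47.9 to 60.3 and from 53.2 to 62.4 CPM, with *Krt7* called higher among 3.

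The genes moved together across the 14 libraries, after each assay's mean had been subtracted. Pearson r was 0.92 between *Zscan4c* and *Zscan4d*, 0.953 between *Zscan4d* and *Zscan4f*, 0.942 between *Zscan4d* and *Gm5039* and 0.647 between *Zscan4f* and *Tcstv3*, the lowest among the genes other than *Tmem92*. *Tmem92* had r between -0.164 and 0.317 with the other 6. These values are a description, since libraries of one culture share their cells and copies share reads. The genes outside the 8 with the most similar pattern were *Slc16a14*, *Arhgef10l* and *Cgas* for *Zscan4c* (r = 0.951 to 0.964), *Arl4d*, *Klf8* and *Nexmif* for *Zscan4d* (0.967 to 0.969) and *Pon3*, *Klf8* and *Gosr1* for *Zscan4f* (0.953 to 0.974). For *Gm12794* they were *Gm5662*, *Arl4d* and *Gm21939* (0.891 to 0.897), and for *Gm5039* *Klhl34*, *Stard8* and *Lonrf2* (0.924 to 0.937). *Tcstv3*, with 1 to 19 counts in a library, reached r of 0.938 to 0.961 with its nearest 3.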

How the data were processed

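The 4sU-Seq experiment comprised 7 cultures and 14 libraries, deposited as 21 samples because the 4sU libraries were sequenced in 2 runs. The deposited values are raw counts per gene without normalization: per the study's methods and processing notes, the authors used cutadapt 1.14 for trimming and STAR 2.5.3a for mapping to mm10, and uniquely mapped reads were counted on the reverse strand with featureCounts 1.5.3 and a Gencode M14 annotation. Gene lengths deposited beside the counts were used only for CPM per kb. Both runs of each 4sU library were added. The 92 spike-in rows held 0 counts and were left out. Symbols and positions came from Gencode M21 on the same build and matched 51274 of 51467 genes.

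Testing was limited to genes that reached 3 CPM in 3 or more libraries. It used edgeR 4.0.16 (quasi-likelihood, robust) under R 4.3.3 with TMM factors over all libraries, which were 0.923 to 0.944 in wild type and 1.04 to 1.07 in *Ddx6* KO. One model held genotype and assay for the pooled KO comparisons, including the change in the ratio of total RNA to 4sU. A second model held clone and assay, so that all 6 groups shared one estimate of the spread. A gene was called at an adjusted p (Benjamini-Hochberg over all tested genes) below 0.05 together with a log2 fold change beyond 1 in size. Exact permutation tests over cultures and exact binomial intervals at 95% came from scipy 1.17.1. The code was tested on simulated data.

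The 8 genes and the gene lists were chosen with earlier results of these data known. Genes outside the lists were named by 1 rule: for each of the 8 that passed the filter, the 3 tested genes with the highest Pearson r of log2(TMM CPM + 0.5). Those of *Tcstv3* are not named because of its low counts, and Y-linked genes, *Gm12800* and *Eif1a* were named after their values were seen. List genes were named from the 6 most abundant of each list in total RNA, and *Dppa3*, *Lin28a* and 5 repressors higher in nascent RNA of both clones after their values were seen. Alternatives were DESeq2 1.42.0, limma-voom (limma 3.58.1), other scalings, no filter, each run alone, replicate blocks, each clone alone, each culture left out and the adjusted p alone. Sums of the *Zscan4* copies and of *Tcstv1* with *Tcstv3* were added after the data were seen.

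Nascent and total RNA of one culture came from the same RNA by protocol, although their deviations from the group means correlated at only 0.0035 to 0.026 across genes. Equal replicate numbers in different groups do not name a shared animal or batch.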

Additional observations from a re-analysis of the deposited data

Results flagged for a closer look

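*Zscan4d* differed between the clones, by the test of the difference itself. Its nascent RNA was lower in KO clone 2 than in KO clone 1 by a log2 change of -1.20 (edgeR adjusted p = 0.000293), with both cultures of KO clone 2 (14.2 and 15.1 CPM) below both of KO clone 1 (33.1 and 34.6 CPM). Its mRNA differed by -0.83 (adjusted p = 0.0449), with 8.01 and 8.68 CPM against 16.1 and 13.8 CPM. With the single-end run alone the nascent difference was again -1.20, but its adjusted p was 0.0713. No culture among the 4 KO cultures stood apart from the rest by the Dixon criterion in any of the 16 gene and assay groups examined, where chance alone would give about 0.8. Where the clones differ, the gap between them widens the range of the 4 cultures, so this criterion can hardly flag a single culture. It therefore says little about outliers.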

How the results depend on the processing

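Of 800 values of single genes under the alternatives, 740 kept their direction and their side of the threshold, 27 lost the call, 16 gained it and 17 changed sign. The number of genes called, *Tcstv3* included, stayed within 1.5 times the main number except in these cases. In nascent RNA of KO clone 2 against wild type it went from 3 to 5 with library-size scaling and to 1 with the paired-end run alone, and between the clones from 1 to 0 with the single-end run alone. In mRNA between the clones it went from 0 to 1 by the adjusted p alone. Leaving out 1 culture at a time gave 3 to 4 called genes in nascent RNA and 2 to 4 in mRNA of pooled *Ddx6* KO cells, 3 to 4 in both for KO clone 1, 2 to 3 in both for KO clone 2, 1 and 0 between the clones, 0 for the stability change and 4 to 6 for wild-type total RNA against 4sU. Where an arm kept 1 culture, that culture was assumed to vary like the other groups. The causes were not tested.

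With a replicate block by number, the called genes were 4 in nascent RNA and 3 in mRNA of pooled KO cells. For KO clone 2 the block gave 3 genes in nascent RNA, with *Zscan4c* lost (0.926, adjusted p = 0.0124) and *Zscan4f* gained (1.32, adjusted p = 0.0188), and for KO clone 1 it gave 3 in mRNA, with *Tcstv3* lost (0.971, adjusted p = 0.126). Same-numbered samples of different groups correlated between -0.0715 and 0.0999, so the numbers were not treated as pairs. With a replicate block by culture, the stability change called 0 genes and wild-type total RNA against 4sU 5.

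Of the values that changed sign, 1 had been called: *Zscan4f* in wild-type total RNA against 4sU went from -1.32 to 0.18 with the single-end run alone. *Tmem92* in pooled KO cells was at 0.031 in nascent RNA and 0.28 in mRNA with KO clone 1 alone. Its nascent RNA in KO clone 1 was at -0.023 with DESeq2, -0.18 with the single-end run and -0.18 to 0.20 with 1 culture left out. The stability change of *Zscan4c* was at -0.042 with the paired-end run, -0.16 with KO clone 1 alone and -0.21 to 0.39 with 1 culture left out. That of *Zscan4d* was at 0.10 with the paired-end run and 0.12 with KO clone 2 alone, and that of *Zscan4f* at 0.048, 0.090 and, with 1 culture left out, -0.38 to 0.11. In wild-type total RNA against 4sU, *Tcstv3* was at -0.089 to 0.60 with 1 culture left out. Over all genes, library-size scaling raised the share of called genes that were higher in pooled KO cells to 69.2% in nascent RNA and 68.2% in mRNA. Depth limited *Tcstv1* and *Tcstv3* most.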
